A study of Macaca mulatta with 6 samples.

Results

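Expression of genes for the fusion and recycling of presynaptic vesicles was compared between morphine-treated and saline-treated rhesus monkeys (Macaca mulatta). The libraries were described as neurons purified from the cortex. The genes were chosen by symbol, as 57 named genes for SNAREs, synaptotagmins, active zone, vesicle and endocytic proteins. Of these, 53 were matched to a row of the table of 23191 genes, and all 53 had a mean of at least 10 normalized counts (reads divided by a size factor per library), the level for testing, among 16595 genes tested. VAMP1, VAMP2, CPLX2 and SYT3 were not matched and are not analysed here.

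Transmitter release rests on vesicles that dock at the active zone, fuse when calcium enters and are then rebuilt by endocytosis. SNARE proteins on the vesicle and on the plasma membrane zip together to drive fusion, synaptotagmins sense the calcium, and scaffolds such as RIM, Munc13, Bassoon and Piccolo prepare vesicles for it. After fusion NSF and its SNAP adaptors pull the SNARE complexes apart, and dynamin, amphiphysin, synaptojanin and AP180 retrieve the membrane.

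Polyadenylated RNA was sequenced in 6 libraries from male animals of 3 to 4 years, 3 libraries per group. Morphine, an opioid agonist, was given subcutaneously in 3 daily doses over 90 days, rising in steps from 3 through 6, 9 and 12 to 15 mg/kg, the last dose from day 29. The saline group received the same number of injections at 0.5 mL/kg. The protocol names 2 animals per group, and the labels give the 3 libraries of a group a single code. With 3 libraries from 2 animals, libraries within each group shared animals, and which ones did so is not known. P-values therefore measure the spread between these libraries and are too small as tests over animals, and treatment cannot be told apart from differences between animals. The depth was 31238653 to 36345095 recovered reads a library.

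The libraries labelled as cortical neurons held transcripts of neurons and of glia, and markers of both moved with the group. Of 12 pan-neuronal markers 5 fell and 2 rose (58.3% called at an adjusted p under 0.05, against 27.9% of all genes tested). The summed level of the 12 was 126809 to 129296 normalized counts in morphine and 147738 to 149544 in saline libraries. The falls included the abundant NEFL (log2 fold change -0.73) and GAP43 (-0.42), and the rises were RBFOX3 (0.22) and TUBB3 (0.23). Sums weigh abundant genes most, so this sum does not stand for all 12 markers. Of 12 excitatory neuron markers 4 fell and 0 rose (33.3% called, summed level 175663 to 176931 against 195406 to 197351). CAMK2A, the most abundant of these 12, did not pass (log2 fold change -0.13). Its morphine values (110260, 110610 and 108654) were nevertheless all below its saline values (118275, 120404 and 120774). Of 14 inhibitory neuron markers 4 rose and 2 fell (42.9% called), with sums that overlapped (58439 to 61626 against 58380 to 59730). Of 8 astrocyte markers measured 6 fell and 1, GFAP, rose (87.5% called, 185526 to 186761 against 243449 to 250776). Of 6 microglia markers 4 rose and 2 fell (100% called, 7533 to 8034 against 5185 to 5505). Of 8 oligodendrocyte markers 3 rose and 3 fell (266512 to 268830 against 260599 to 265163), of 4 oligodendrocyte precursor markers 2 rose and 0 fell (10184 to 10429 against 8325 to 8563), and of 7 endothelial and mural markers 1 rose and 3 fell (9738 to 10220 against 11788 to 11993). No measured marker of these lists was below the level for testing. The part of these shifts in the results on presynaptic genes was not tested, and in such bulk RNA fewer cells of a type and less RNA per cell cannot be told apart.

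More presynaptic genes fell than rose in the morphine libraries, and most of the changes were small. Of the 53 genes 15 fell (28.3%, against 15.0% of all genes tested) and 6 rose (11.3%, against 12.9%) at an adjusted p under 0.05 in limma, a linear model of log2(normalized count + 1) with Benjamini-Hochberg adjustment across every gene tested. In both directions together 39.6% of the presynaptic genes were called, against 27.9% of all genes tested and 31.0% of genes with a mean of at least 50 normalized counts. The genes were chosen with earlier results of these data known, so these shares describe the list and are no independent test of it. The median log2 fold change over the 53 genes was -0.06, where all genes tested had a median of 0.01. Among called genes the median absolute log2 fold change was 0.35 in the presynaptic set and 0.49 over all genes. Of the 21 called presynaptic genes 4 (19.0%) moved by over 1.5 fold, against 37.3% of all called genes. The 3 morphine values lay below the 3 saline values for 21 genes (39.6%, against 24.6% of all genes tested) and above them for 13 (24.5%, against 24.1%), in all 64.2% of the presynaptic genes against 48.7% of all genes tested. Refitted on genes with a mean of at least 50, limma called 35.8% of all genes and 8 rises and 14 falls among the presynaptic genes. When 1 library was left out 0 to 2 genes rose and 8 to 11 fell, where 15.3% to 19.2% of all genes were called. With no filter on low values 1 rose and 9 fell, where 12.9% of all genes were called. Of the 15 falls 8 passed in each of the 6 fits without 1 library, while 0 of the 6 rises did. On the recovered reads, edgeR called 10 rises and 20 falls (all genes tested: 16.3% rose, 17.7% fell, 34.0% in all) and DESeq2 10 and 21 (18.0% rose, 18.8% fell, 36.8% in all). Both tools called all 21 genes that limma called, in the same direction.

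**Figure D1:**
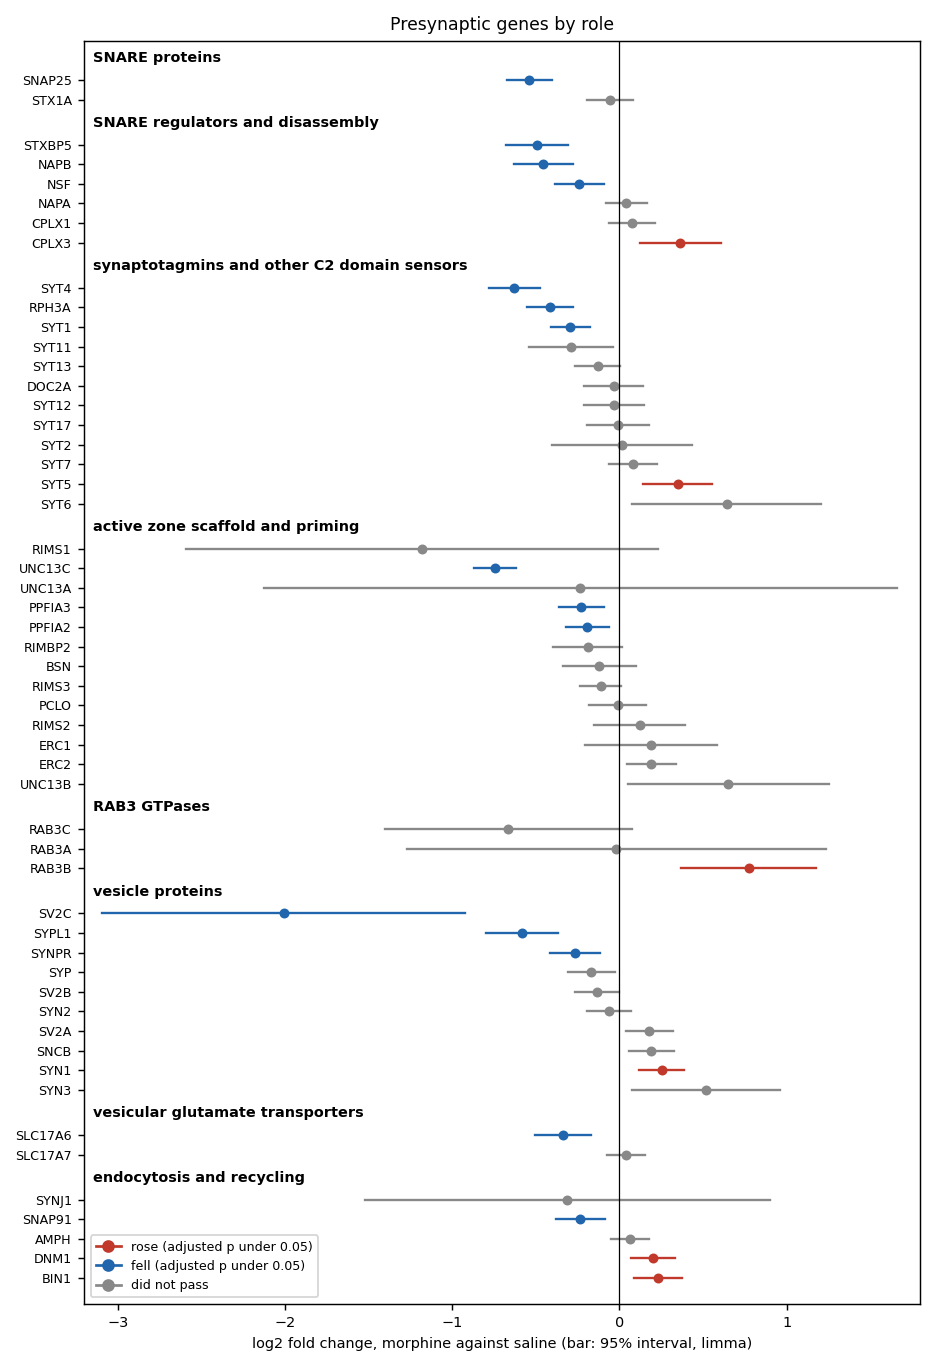
Log2 fold change of each of the 53 genes (x axis, morphine against saline, on the log2(normalized count + 1) scale), in blocks by role, with the 95% interval from limma as a bar. Blue marks the 15 genes that fell, red the 6 that rose and grey the 32 that did not pass. RIMS1, UNC13A, RAB3A and SYNJ1 have the widest intervals that cross 0.

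**Figure D2:**
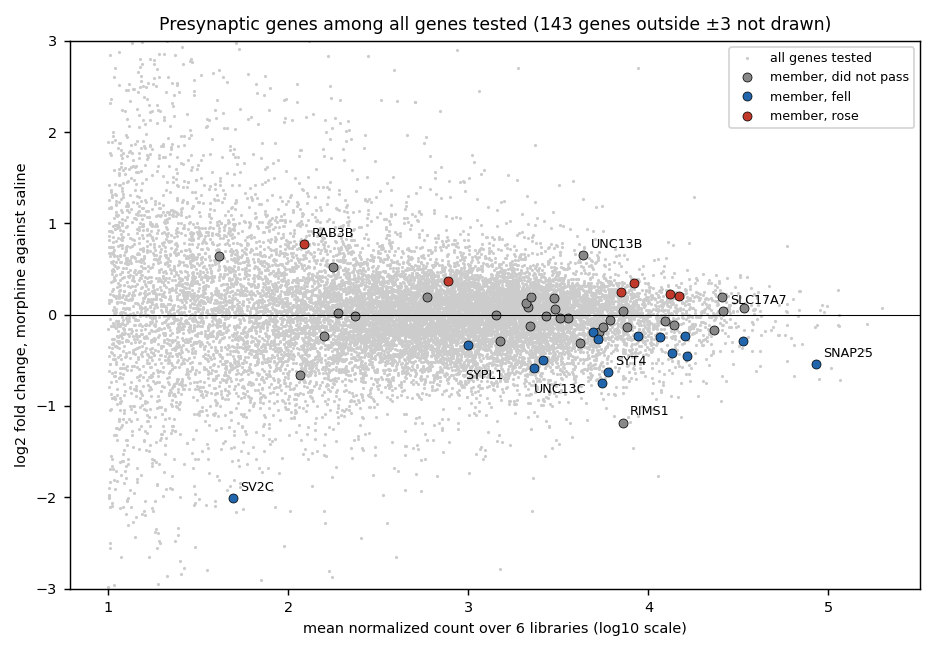
Log2 fold change (y axis) against the mean normalized count over the 6 libraries (x axis, log10 scale) for the 16595 genes tested (light grey, 143 genes outside ±3 not drawn), with the 53 presynaptic genes as outlined points. Most presynaptic genes lie close to 0, and SV2C, with a log2 fold change of -2.01, lies farthest from 0.

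The SNARE gene SNAP25 fell, and its plasma membrane partner STX1A did not pass. SNAP25 (ENSMMUG00000011064) encodes the membrane-bound SNARE that gives the fusion complex a pair of its helices. It had 70374, 68509 and 69691 normalized counts in the morphine libraries, in the order 1, 2, 3 used throughout, and 99528, 105819 and 97788 with saline. Every morphine value was below every saline value, the log2 fold change was -0.54 ± 0.0538 (SE) and the limma adjusted p was 0.00421 (0.0161 to 0.0227 without 1 library). STX1A, syntaxin 1, had 5912, 6226 and 5809 in morphine and 6391, 6189 and 6068 in saline libraries. These values overlapped, and the log2 fold change of -0.06 had a 95% interval from -0.19 to 0.08. SNAP25 alone carried much of the difference between morphine and saline in the summed level of the 53 genes. The sum was 436426 to 442661 normalized counts in morphine and 488430 to 503167 in saline libraries, a ratio of means of 0.881. Without SNAP25 the ratio was 0.931, and that of the summed pan-neuronal markers was 0.863. The pan-neuronal sum is weighted to its abundant genes, and RBFOX3 and TUBB3 rose within it.

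Among regulators of the SNARE complex 3 of 6 genes fell, 1 rose and 2 did not pass (66.7% called, against 27.9% of all genes tested). STXBP5, tomosyn, which binds syntaxin and SNAP25 and holds back fusion, went from 2855, 3294 and 2966 normalized counts in the saline libraries to 2134, 2101 and 2229 in the morphine libraries. It fell by 0.49 ± 0.0726 on the log2 scale (limma adjusted p = 0.00963). NAPB, beta-SNAP, the brain form of the adaptor that brings NSF to SNARE complexes, went from 17847, 20296 and 19007 to 13982, 14397 and 13269. The groups did not overlap in either gene, and NAPB fell by 0.46 ± 0.0705 (limma adjusted p = 0.0109). NSF, the ATPase that takes the complexes apart, had 10783, 10591 and 10537 in morphine and 12086, 13291 and 12339 in saline libraries and fell by 0.24. Its groups were also apart, but the change was smaller (limma adjusted p = 0.0341) and did not pass when any 1 library was left out (0.0570 to 0.0981). NAPA, the widely expressed alpha-SNAP, did not pass, with 7101, 7347 and 7442 in morphine and 6963, 7085 and 7211 in saline libraries. CPLX3 rose: this complexin, a protein that clamps and then assists fusion, had 948.0, 836.1 and 819.6 in morphine and 678.9, 729.7 and 613.8 in saline libraries, a log2 fold change of 0.36 ± 0.0955 (limma adjusted p = 0.0435, and 0.0577 to 0.104 without 1 library, so that the call was lost in each such fit). For CPLX1, another complexin, the morphine values (35651, 34595 and 34232) were all above the saline values (34212, 31654 and 33428), but the log2 fold change of 0.07 did not pass (limma adjusted p = 0.357).

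Synaptotagmins and related C2 domain proteins moved in different directions. Of 12 genes 3 fell, 1 rose and 8 did not pass (33.3% called, against 27.9% of all genes tested). SYT1, the fast calcium sensor of vesicle fusion in forebrain neurons, had 29774, 30184 and 30841 normalized counts in morphine and 37052, 37598 and 36656 in saline libraries. The libraries of each group lay close together and the groups were apart, with a fall of 0.29 ± 0.0463 on the log2 scale (limma adjusted p = 0.0114). SYT4, a synaptotagmin found on dense-core and postsynaptic vesicles whose first C2 domain lacks a residue needed to bind calcium, fell as well. It went from 7206, 7452 and 7088 in saline to 4974, 4490 and 4610 in morphine libraries, a fall of 0.63 ± 0.0610 (limma adjusted p = 0.00397). RPH3A, rabphilin, which binds RAB3 and membranes, went from 15403, 14792 and 16073 to 11397, 11482 and 11775 and fell by 0.42 ± 0.0544 (limma adjusted p = 0.00729). All 3 falls passed in limma without any 1 library, with adjusted p-values up to 0.0455, 0.0212 and 0.0332.

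SYT5 was the synaptotagmin that rose, with 9658, 9171 and 9007 normalized counts in morphine and 7190, 6729 and 8007 in saline libraries. Its groups did not overlap, and the log2 fold change was 0.35 ± 0.0815 (limma adjusted p = 0.0324). The call remained without saline library 3 (adjusted p = 0.0303) and was lost without morphine library 1, 2 or 3 or saline library 1 or 2 (adjusted p = 0.0950, 0.0868, 0.0753, 0.0866 and 0.0753). SYT11 and SYT13, synaptotagmins that do not bind calcium, did not pass in limma but did in both count tests. SYT11 had 1371, 1325 and 1337 in morphine and 1888, 1493 and 1584 in saline libraries (limma adjusted p = 0.0842, edgeR adjusted p = 0.0324). SYT13 had 7044, 7277 and 7391 and 7816, 8244 and 7726 (limma adjusted p = 0.127, edgeR adjusted p = 0.0339). In both genes every morphine value was below every saline value. SYT2, SYT6, SYT7, SYT12, SYT17 and DOC2A overlapped between groups and did not pass in limma, edgeR or DESeq2. SYT6 had 56.3, 39.9 and 53.8 normalized counts in morphine and 29.6, 41.1 and 25.3 in saline libraries, which overlapped by 1 value each (log2 fold change 0.64, 95% interval 0.08 to 1.21, limma adjusted p = 0.0897).

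**Figure D3:**
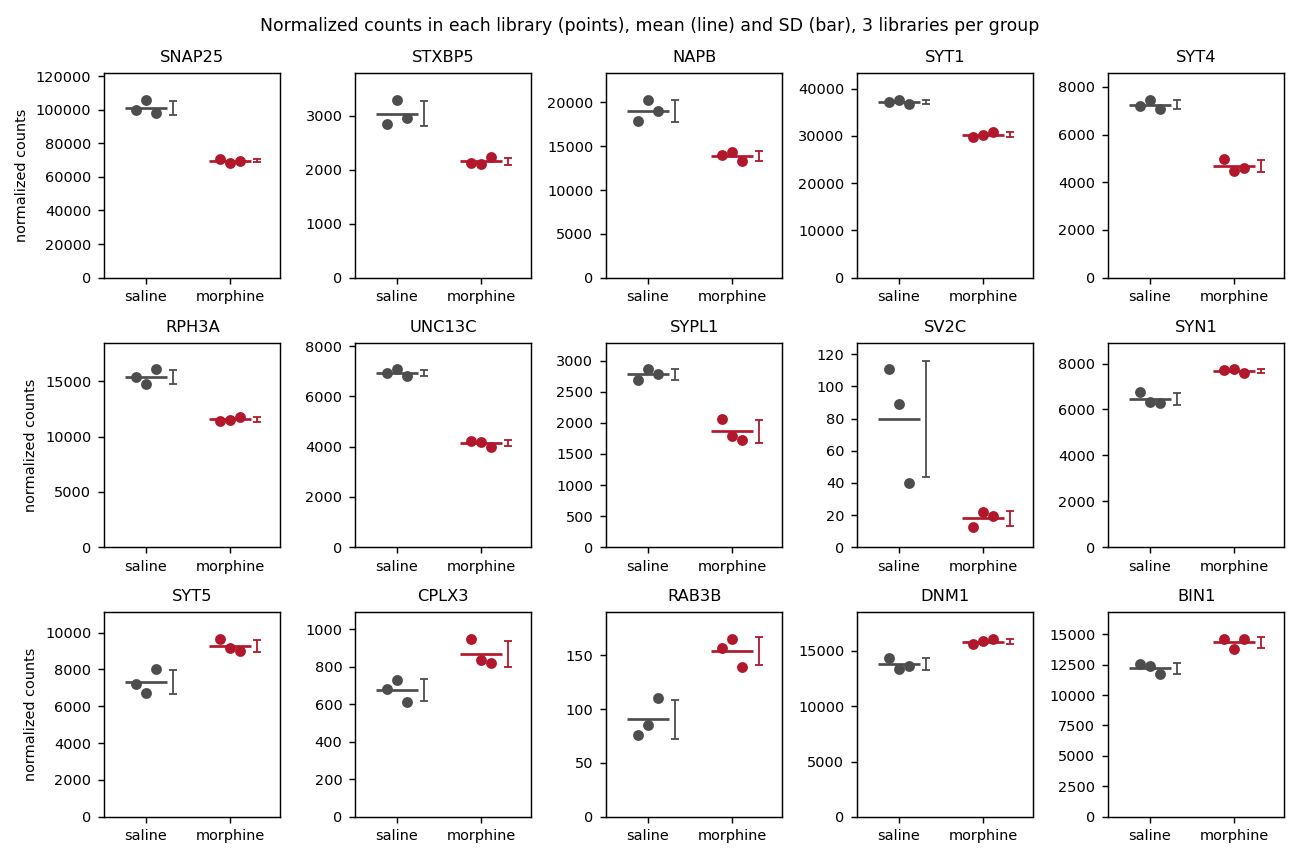
Normalized counts (y axes, from 0) of 15 genes in each saline library (dark grey points) and morphine library (red points), with the group mean as a line and the SD as a bar, n = 3 libraries per group. The genes drawn were picked among those called in limma: all 6 that rose and a part of the 15 that fell. The groups do not overlap in any of them, as in 48.7% of all genes tested. The saline libraries of SV2C are spread from 40.1 to 110.5.

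Among 13 genes of the active zone, 3 fell, 0 rose and 10 did not pass (23.1% called, against 27.9% of all genes tested). UNC13C, Munc13-3, which primes vesicles and is best known from the cerebellum, showed the largest log2 fall of the called genes after SV2C. It had 4233, 4186 and 4003 normalized counts in morphine and 6921, 7075 and 6815 in saline libraries. That is a fall of 0.74 ± 0.0504 on the log2 scale with a limma adjusted p of 0.00212 (0.0121 to 0.0148 without 1 library). The liprins PPFIA2 and PPFIA3, which organise active zone assembly, fell less. PPFIA3 went from 17625, 16814 and 17533 to 15321, 14619 and 14405 and fell by 0.23 ± 0.0528 (limma adjusted p = 0.0308). PPFIA2 went from 5026, 5405 and 5259 to 4599, 4595 and 4536 and fell by 0.19 ± 0.0513 (limma adjusted p = 0.0458). The groups were apart for both liprins, but neither passed in limma when any 1 library was left out (adjusted p from 0.0582 to 0.0951 for PPFIA3 and from 0.0627 to 0.121 for PPFIA2), and PPFIA2 did not with upper-quartile scaling (adjusted p = 0.0604).

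The giant scaffolds BSN and PCLO did not pass, and neither did the other genes of the active zone. PCLO, Piccolo, had 2521, 2785 and 2803 normalized counts in morphine and 2714, 2825 and 2619 in saline libraries, and BSN, Bassoon, had 2048, 2271 and 1963 and 2212, 2156 and 2458. The 95% interval of the log2 fold change was -0.18 to 0.16 for PCLO and -0.34 to 0.10 for BSN. ERC2, an active zone scaffold of the ELKS family, had 2283, 2415 and 2384 in morphine and 2140, 2097 and 1968 in saline libraries. RIMS3, a short RIM protein, had 13344, 13432 and 13346 and 14613, 14025 and 14775. For ERC2 all morphine values were the higher and for RIMS3 the lower. Both passed in edgeR (adjusted p = 0.0281 and 0.0179) and not in limma (adjusted p = 0.0637 and 0.139). RIMBP2, which links RIM to calcium channels, passed in DESeq2 (log2 fold change -0.19, adjusted p = 0.00888) and not in limma or edgeR (adjusted p = 0.144 and 0.0558). ERC1 and RIMS2 overlapped between groups and did not pass in any of the 3 tools.

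Several genes varied widely between libraries of one group. RIMS1, the main RIM scaffold, had 7702, 3546 and 2403 normalized counts in morphine and 11464, 12757 and 5243 in saline libraries. Values differed over 3 fold among the morphine libraries, the groups overlapped, and the log2 fold change of -1.18 ± 0.558 did not pass (limma adjusted p = 0.174). UNC13A, Munc13-1, had 216.8, 111.7 and 70.1 and 70.1, 370.9 and 106.5, and UNC13B, Munc13-2, had 4692, 5584 and 5520 and 3911, 4067 and 2350. The UNC13A groups overlapped, while the morphine values of UNC13B were all above the saline values (limma adjusted p = 0.0997, edgeR adjusted p = 0.0343). SYNJ1, synaptojanin, a lipid phosphatase that uncoats vesicles, had 1983, 4646 and 4552 in morphine and 5756, 2591 and 5377 in saline libraries. In SYNJ1 1 library of each group lay far below the other two. RAB3A, the main RAB3 GTPase of synaptic vesicles, had 140.3, 281.4 and 257.5 and 246.7, 118.3 and 361.7. RAB3A and SYNJ1 did not pass (limma adjusted p = 0.981 and 0.659). Morphine library 1 and saline library 2 were the lowest of their groups in both RAB3A and SYNJ1, and the same libraries were the highest of their groups in RIMS1 and UNC13A. The libraries of 1 group differed over 2 fold for 6 of the 53 genes (RIMS1, UNC13A, RAB3A, RAB3C, SV2C and SYNJ1), which is 11.3%. Among genes with a mean of at least 50 this was so for 5 of 51 presynaptic genes (9.80%) and for 6.42% of all genes. What sets these libraries apart in these genes was not tested.

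**Figure D4:**
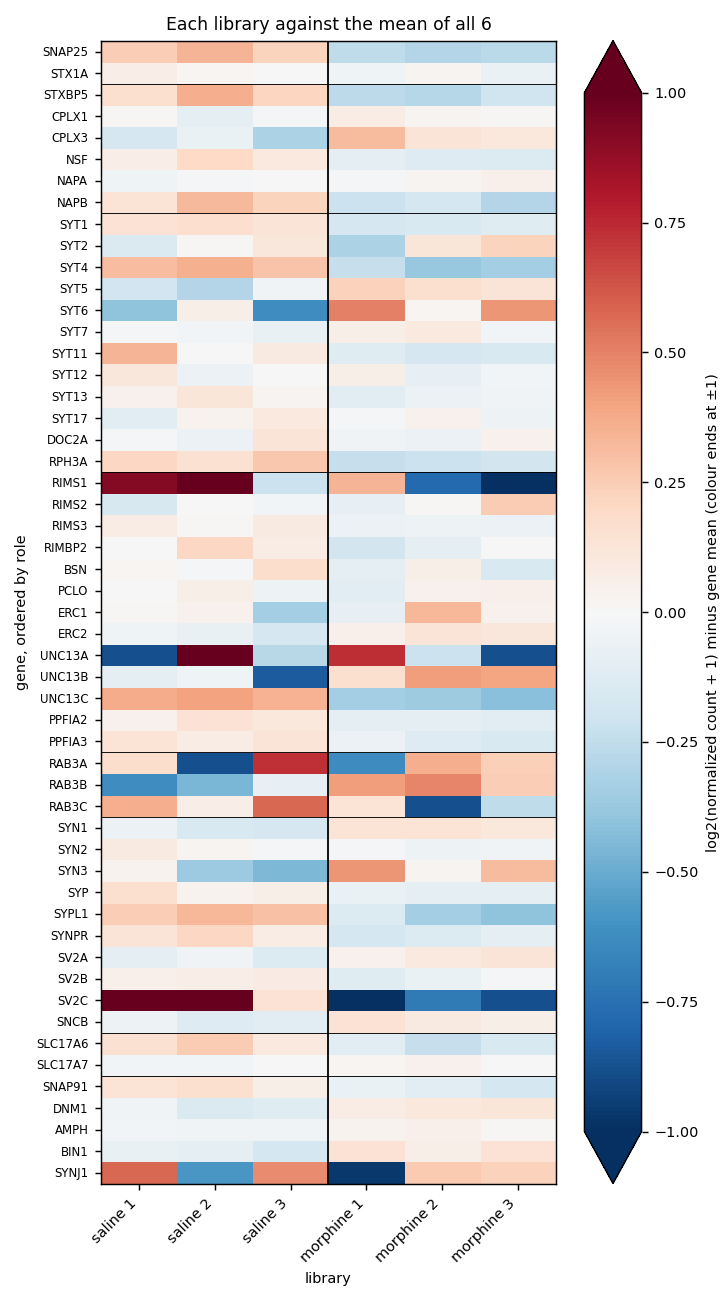
Each of the 53 genes (rows, ordered by role, with thin lines between roles) in each library (columns, saline left and morphine right of the line), coloured by log2(normalized count + 1) minus the gene's mean over the 6 libraries, with colours ending at ±1. Most rows change little or change colour at the line, while RIMS1, UNC13A, RAB3A, RAB3C and SYNJ1 change within a group.

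RAB3B, one of the RAB3 GTPases that sit on vesicles and bind RIM and rabphilin, rose. It had 157.3, 165.2 and 139.3 normalized counts in morphine and 76.0, 85.2 and 110.7 in saline libraries. The groups did not overlap, the log2 fold change was 0.77 ± 0.158, the largest rise among the 53 genes, and the limma adjusted p was 0.0227. The call remained without saline library 3 (adjusted p = 0.0181) and was lost without morphine library 1, 2 or 3 or saline library 1 or 2 (adjusted p = 0.0706, 0.0732, 0.0501, 0.0534 and 0.0719). The third family member measured, RAB3C, had 122.2, 59.9 and 93.2 in morphine and 143.1, 116.3 and 165.6 in saline libraries, which overlapped by 1 morphine value (log2 fold change -0.66 ± 0.291, limma adjusted p = 0.150).

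Of 10 genes for proteins of the vesicle itself, 3 fell, 1 rose and 6 did not pass (40.0% called, against 27.9% of all genes tested). SV2C, a glycoprotein of the SV2 family known from the basal ganglia, had 12.8, 21.8 and 19.2 normalized counts in morphine and 110.5, 89.2 and 40.1 in saline libraries, or 12, 24 and 20 against 112, 89 and 38 recovered reads. All morphine values were below all saline values, but saline library 3 was far lower than the other saline libraries. The log2 fold change was -2.01 ± 0.429 (limma adjusted p = 0.0252). The call remained without saline library 3 (adjusted p = 0.0165) and was lost without morphine library 1, 2 or 3 or saline library 1 or 2 (adjusted p = 0.0746, 0.0607, 0.0683, 0.0628 and 0.0784). SYPL1, a synaptophysin relative expressed widely outside neurons, went from 2690, 2858 and 2787 to 2068, 1796 and 1718 and fell by 0.58 ± 0.0855 (limma adjusted p = 0.00961, and 0.0169 to 0.0401 without 1 library). SYNPR, synaptoporin, went from 5672, 5989 and 5461 to 4607, 4717 and 4889 and fell by 0.27 ± 0.0591 (limma adjusted p = 0.0275). Without saline library 3 SYNPR passed (adjusted p = 0.0470), and it did not without morphine library 1, 2 or 3 or saline library 1 or 2 (adjusted p = 0.0836, 0.0839, 0.0608, 0.0709 and 0.0701).

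SYN1, synapsin I, which tethers vesicles in the reserve pool, rose while SYN2 did not pass. SYN1 had 7723, 7742 and 7568 normalized counts in morphine and 6756, 6329 and 6273 in saline libraries, with no overlap and a log2 fold change of 0.25 ± 0.0533 (limma adjusted p = 0.0246). It passed in limma without saline library 1 (adjusted p = 0.0381) and did not without morphine library 1, 2 or 3 or saline library 2 or 3 (adjusted p = 0.0752, 0.0791, 0.0664, 0.0713 and 0.0721). SYN2 had 12234, 11936 and 12039 and 13141, 12551 and 12197, which overlapped (log2 fold change -0.06). SYN3, another synapsin, had 233.8, 175.2 and 214.3 and 176.6, 133.3 and 125.5. The SYN3 groups overlapped by 1 value each, and the log2 fold change of 0.52 ± 0.175 did not pass (limma adjusted p = 0.0825).

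SYP, SV2A, SV2B and SNCB had groups that did not overlap and passed in edgeR and DESeq2, but not in limma. SYP, synaptophysin, the most used marker of synaptic vesicles, had 22152, 21688 and 21808 normalized counts in morphine and 25962, 23716 and 24158 in saline libraries (log2 fold change -0.17, limma adjusted p = 0.0810, edgeR adjusted p = 0.00662). SNCB, beta-synuclein, had 28334, 27285 and 26756 and 24835, 23458 and 23911 (log2 fold change 0.19, limma adjusted p = 0.0504, edgeR adjusted p = 0.00203). SNCB thus lay just past the threshold, and it passed in limma with a pseudocount of 0.5 (adjusted p = 0.0498) or upper-quartile scaling (adjusted p = 0.0417). SV2A, the vesicle protein that binds the drug levetiracetam, had 3083, 3214 and 3280 in morphine and 2803, 2930 and 2732 in saline libraries (limma adjusted p = 0.0682, edgeR adjusted p = 0.0254). SV2B had 5163, 5379 and 5553 and 5829, 5896 and 5947 (limma adjusted p = 0.110, edgeR adjusted p = 0.0339). The morphine values were the higher in SV2A and SNCB and the lower in SYP and SV2B.

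Of the vesicular glutamate transporters, which fill vesicles with glutamate, SLC17A6 fell and SLC17A7 did not pass. SLC17A6 (VGLUT2), known mainly from subcortical neurons, went from 1091, 1174 and 1055 normalized counts in saline to 907.6, 837.0 and 884.0 in morphine libraries. It fell by 0.34 ± 0.0660 on the log2 scale (limma adjusted p = 0.0204). The call remained without morphine library 1 or saline library 3 (adjusted p = 0.0497 and 0.0400) and was lost without morphine library 2 or 3 or saline library 1 or 2 (adjusted p = 0.0665, 0.0608, 0.0549 and 0.0524). SLC17A7 (VGLUT1), the main form of cortical excitatory neurons, had 26103, 26593 and 25830 in morphine and 25377, 25292 and 25693 in saline libraries. The SLC17A7 values were slightly higher in morphine with no overlap, but the log2 fold change was 0.04 with a 95% interval from -0.07 to 0.15.

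Of 5 genes for vesicle endocytosis and recycling 2 rose, 1 fell and 2 did not pass, where 27.9% of all genes tested were called. DNM1, dynamin 1, the GTPase that pinches off vesicles at synapses, had 15598, 15885 and 16088 normalized counts in morphine and 14411, 13374 and 13635 in saline libraries. BIN1, an amphiphysin that bends membranes and is also abundant in oligodendrocytes, had 14602, 13764 and 14582 and 12546, 12355 and 11700. Both rose with no overlap, DNM1 by 0.20 ± 0.0530 and BIN1 by 0.23 ± 0.0566 on the log2 scale (limma adjusted p = 0.0446 and 0.0364). SNAP91, AP180, a clathrin adaptor that recruits VAMP2, went from 9568, 9707 and 9060 to 8325, 8043 and 7709 and fell by 0.24 ± 0.0580 (limma adjusted p = 0.0371). None of these 3 calls passed in limma when any 1 library was left out (adjusted p from 0.0581 to 0.121 for DNM1, 0.0673 to 0.105 for BIN1 and 0.0584 to 0.104 for SNAP91). DNM1 did not pass with TMM scaling (adjusted p = 0.0508) and SNAP91 did not with upper-quartile scaling (adjusted p = 0.0518). AMPH, amphiphysin 1, had 3117, 3154 and 3060 in morphine and 2986, 2969 and 2972 in saline libraries, apart by little (log2 fold change 0.06, limma adjusted p = 0.338).

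Ratios of 2 related genes within a library do not depend on how libraries are scaled, apart from the pseudocount. Both genes were measured for 11 of 13 pairs considered, and in 4 pairs the 3 morphine ratios lay outside the range of the saline ratios. The log2 ratio of SYN1 to SYN2 was -0.66, -0.62 and -0.67 in morphine and -0.96, -0.99 and -0.96 in saline libraries. That of SV2A to SV2B was -0.74, -0.74 and -0.76 against -1.06, -1.01 and -1.12, and that of NAPA to NAPB was -0.98, -0.97 and -0.83 against -1.36, -1.52 and -1.40. These 3 ratios were higher with morphine, by 0.32, 0.31 and 0.50. The log2 ratio of SLC17A6 to SLC17A7 was lower, at -4.84, -4.99 and -4.87 against -4.54, -4.43 and -4.61, a difference of -0.38. Counts are not divided by gene length, so the ratios compare libraries and not the levels of the 2 genes. The exact two-sided permutation test over libraries gave p = 0.10 for each of the 4 (0.275 adjusted over the 11 pairs by the Benjamini-Hochberg method), and 0.10 is the smallest p that 3 against 3 libraries allow. In the other 7 pairs (SYT1 to SYT2, RAB3A to RAB3C, UNC13A to UNC13C, RIMS1 to RIMS3, ERC1 to ERC2, PPFIA2 to PPFIA3 and BSN to PCLO) the groups overlapped (exact p from 0.20 to 1.0).

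**Figure D5:**
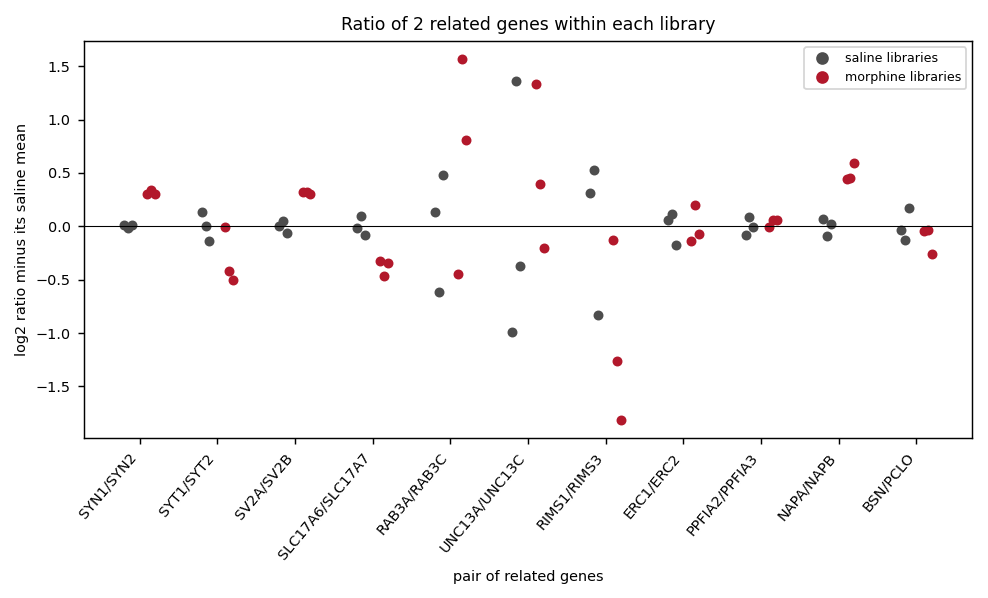
Log2 ratio of 2 related genes in each library (y axis, shown minus the mean of the saline libraries) for 11 pairs (x axis), with saline libraries in grey and morphine libraries in red. The groups are apart for SYN1/SYN2, SV2A/SV2B, SLC17A6/SLC17A7 and NAPA/NAPB and overlap in the other 7 pairs.

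From a list of 76 further genes of vesicle release and recycling, 67 were tested. Of these 67 genes 16 fell (23.9%, against 15.0% of all genes tested) and 10 rose (14.9%, against 12.9%). In all 38.8% were called, beside 39.6% of the 53 presynaptic genes and 27.9% of all genes tested. The median log2 fold change of the 67 was -0.04. Without 1 library 10 or 11 of them fell and 4 to 7 rose. The falls with the smallest adjusted p in limma included EPS15, PACSIN1, SCAMP1, CADPS2 and HSPA8. In this order the log2 fold changes were -0.93, -0.37, -0.91, -0.55 and -0.44. EPS15 and PACSIN1 act in endocytosis, and SCAMP1 is a membrane protein of secretory vesicles. CADPS2 is a priming factor of dense-core vesicles, and HSPA8 is the chaperone that strips clathrin coats. The 6 rises with the smallest adjusted p were in BAIAP3, a Munc13 relative (1.86), DOC2B, a calcium sensor (0.50), PRRT2, a SNARE-binding membrane protein (0.31), EPN2, an endocytic adaptor (0.36), APBA1, the scaffold Mint1 (0.26), and the liprin PPFIA4 (0.27). Of these named genes all but APBA1 and PPFIA4 passed in limma without any 1 library. APBA1 and PPFIA4 passed only without saline library 1, with adjusted p-values of 0.0385 and 0.0398, and reached 0.0618 and 0.0680 when morphine library 1, 2 or 3 or saline library 2 or 3 was left out.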

How the data were processed

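Polyadenylated RNA of 6 libraries was analysed from the authors' deposited table of normalized counts. Its values, per the file headers, are a signal: counts that were scaled by a size factor for each library. In all libraries 100% of the values were whole multiples of the value of 1 read (tolerance 0.001), which gave 31238653 to 36345095 recovered reads. The build hg19, StringTie, Bowtie2 2.1.0 and DESeq2 1.18.1 are listed, per the submitters' processing notes, without their roles. The genome and annotation behind the rhesus gene IDs and the use of strand are not given in the sources used here, so reads of overlapping genes and close paralogs may be shared. The same deposited table holds the authors' log2 fold changes, test scores and p-values, used only for comparison. A deposited subset of 2332 genes was not used. Symbols were matched for 15436 of 23191 IDs (66.6%).

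Genes with a mean of at least 10 were tested in R 4.3.3 on the scale log2(value + 1) by limma 3.58.1, with group as the only term, so a fold change is on that scale and understates changes of low genes. P-values were adjusted over all genes tested by the Benjamini-Hochberg method, and calls were made under 0.05. The recovered reads were also tested with edgeR 4.0.16 (quasi-likelihood) and DESeq2 1.42.0. The fits were tested on simulated data with the same spread between libraries set for every gene. Of 100 genes changed by 1.5 fold limma recovered 6 and edgeR 28, and of 100 changed by 2 fold 67 and 80. Genes that did not pass may thus still have changed. The false calls were 6 and 5. Groups came from sample titles, and libraries within a group differed by more than sampling noise. Values per library are given for presynaptic genes that pass in limma or in both edgeR and DESeq2, and for SYN1, SYP, SYT1, SNAP25, STX1A, SLC17A7, SLC17A6 and DNM1, and others were named after their values were seen. Of the further genes of release and recycling the 6 rises and 6 falls with the smallest adjusted p were chosen to be named, and 1 of them is not reported here. The genes and lists were chosen with earlier results of these data known. Alternatives were other scaling, filters, pseudocounts, tests and thresholds, the replicate number as a block, and each library left out in turn. Figures were drawn with matplotlib 3.10.9.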

Additional observations from a re-analysis of the deposited data

How the results depend on the processing

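The counts of 6 rises and 15 falls among the presynaptic genes, and of 10 rises and 16 falls among the further genes of vesicle release and recycling, changed with the filter, the threshold, the test, the replicate block and the libraries used. With no filter on low values 1 presynaptic gene rose and 9 fell, and 4 of the further genes rose, with 12.9% of all genes called in place of 27.9%. At an adjusted p under 0.01, 0 rose and 6 fell, and 2 and 9 of the further genes did, with 9.23% of all genes called. The count of presynaptic rises was 10 with edgeR, with DESeq2, in the authors' deposited table and in limma with an intensity trend. In this order 34.0%, 36.8%, 29.5% and 34.4% of all genes with an adjusted p were called. The presynaptic falls were 20 with edgeR and 21 both with DESeq2 and in the authors' table. With DESeq2 17 further genes rose. Without 1 library 0 to 2 presynaptic genes rose and 8 to 11 fell, and 4 to 7 further genes rose and 10 to 11 fell, with fewer samples in each fit and 15.3% to 19.2% of all genes called.

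The replicate numbers of the labels did not pair the libraries: same-numbered libraries had correlations of -0.0563, -0.00392 and -0.0284, and no library correlated best with its own number. With the replicate block 0 presynaptic genes rose and 4 fell, 2 further genes rose and 6 fell, and 1577 of all genes were called (9.50%) in place of 4631.

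Of the 53 presynaptic genes 45 kept their sign in all alternatives, and the 8 that did not were not called in limma. With upper-quartile scaling the log2 fold change was 0.0142 for SYT17, 0.0141 for PCLO and 0.00514 for RAB3A. Without 1 library it ranged from -0.0365 to 0.0400 for PCLO, -0.461 to 0.341 for RAB3A, -0.679 to 0.0929 for SYNJ1, -0.0940 to 0.178 for SYT2, -0.0697 to 0.0354 for SYT17, -0.732 to 0.462 for UNC13A, -0.0713 to 0.0151 for SYT12 and -0.0731 to 0.0186 for DOC2A. The difference between groups in the log2 ratio of ERC1 to ERC2 ranged from -0.102 to 0.0637 without 1 library, and that in the log2 ratio of PPFIA2 to PPFIA3 from -0.00374 to 0.0826. The other 9 ratios kept their sign in all settings. SV2C, with 12 to 112 reads per library, is limited most by depth among the called presynaptic genes. With 3 libraries per group from 2 animals, results over animals could not be tested.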
